A study of Mus musculus with 8 samples.

Results

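The cytosolic ribosomal proteins are the protein subunits of the ribosomes that translate nuclear messages in the cytoplasm. Their genes were taken from the array annotation by symbol, as Rpl or Rps followed by a digit together with Rplp0, Rplp1, Rplp2 and Rpsa. The S6 kinases, paralogs with symbols ending in l or l1, and a pseudogene symbol were left out, which removed 11 symbols. Each gene was read from its brightest probe set among those annotated to a single symbol. The rule found 42 genes of the 12393 genes that could be read in this way, 22 of the large subunit and 20 of the small subunit.

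The series measured total RNA from mouse intestinal epithelial cells on 8 single-channel expression arrays, 2 for each of 4 genotypes. The mice were of mixed strain (C57BL/6 x 129Sv x FVB). Wild-type mice carried neither alteration, IkkαAA/AA mice were homozygous for the AA allele of the kinase IKKα, β-catc.a. mice had stabilised β-catenin in the intestinal epithelium, and β-catc.a./IkkαAA/AA mice carried both. All 4 groups, the wild type included, received tamoxifen by gavage on 5 days and were sampled on day 15 after the first dose. Stabilisation is tamoxifen-inducible and mimics an early step of Wnt-driven tumour formation, and the series was designed to ask how IKKα controls the proliferation that follows. The labels used here name no driver of the inducible allele and give no age or sex. The groups are called wild type, IKKα-AA, stabilised β-catenin and double mutants from here on. The labels do not say whether the 2 arrays of a group came from separate animals, so every p-value measures only the spread between these arrays, which may be technical.

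The eukaryotic ribosome consists of a small subunit, which reads the message, and a large subunit, which forms peptide bonds. Most ribosomal proteins are present in a single copy per ribosome, their genes are expressed together, and surplus protein is degraded. Transcription of these genes is raised by Myc, and translation of their messages is raised by the TOR kinase through a pyrimidine tract at the very 5′ end of the message. In the intestine, ribosome production is high in the dividing crypt cells, where Wnt signalling is active, and falls as cells differentiate on the villus.

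The arrays were of similar overall brightness, with a median intensity between 50.94 and 53.75. The epithelial label was met by the markers of that cell type. The adhesion molecule Epcam read between 12.48 and 12.65 on the log2 scale on every array, and the simple-epithelial keratin Krt8 between 13.06 and 13.25. Markers of blood vessels and connective tissue were dimmer than these, with Pecam1 between 2.72 and 3.21 and Col1a1 between 2.92 and 3.54. The brightest of the 2 lists had means of 5.75 (Esam) and 6.84 (Vim). Of the 10 connective-tissue markers, Vim was higher in stabilised β-catenin than in wild type by 1.20 (adjusted p 0.0365 by limma's test). Des differed by -0.73 (adjusted p 0.0446). T cell markers were clearly present and differed between groups. Over all 12393 genes, 711 were higher and 440 lower in stabilised β-catenin than in wild type at an adjusted p under 0.05. With every array centred on its median the balance turned, to 467 higher and 1213 lower, as centring moved the median over all genes from 0.01 to -0.16. In these bulk samples, fewer cells of a type and less RNA per cell cannot be told apart.

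Of the 42 ribosomal protein genes, 34 had a mean log2 intensity of at least 10, in the brightest range of the array. The other 8, Rpl12, Rpl14, Rpl27a, Rpl37, Rpl39, Rps25, Rps27 and Rps6, were dim on the only probe sets annotated to them alone. The highest readings belonged to Rplp2, an acidic protein of the stalk that recruits translation factors, with a mean of 13.15, followed by Rpl41 at 13.06 and Rps29 at 12.92. The lowest were those of Rpl39 at 4.54 and of Rpl12 and Rps27 at 5.97. Intensities of different probe sets depend on the probes as well as on the message, so these readings do not order the genes by transcript number. Rplp1, the partner of Rplp2, and Rpl5, which joins the large subunit with the 5S RNA, were represented only on probe sets that also list other symbols. Rps27a, made as a fusion with ubiquitin, had no single-symbol probe set either.

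The ribosomal protein genes were higher in stabilised β-catenin than in wild type. The difference was positive in 42 of 42 genes, against 51.0% of all genes, and in 41 of 42 both stabilised β-catenin arrays lay above both wild-type arrays, against 33.5% of all genes. The exception was Rpl39, the dimmest. The median difference of the log2 group means was 0.40, or 1.32-fold, with single genes between 0.10 and 1.27, while the median over all genes was 0.01. The standard errors, from 2 arrays a group, had a median of 0.16. In all, 5 genes (11.9%) rose past the test, limma's moderated test with Benjamini-Hochberg adjustment over all genes, where 5.74% of all genes were called higher. None was called lower, against 3.55%. The excess of calls over all genes depended on the genes compared and on the scaling. A fit of the genes above the median level held 39 of the 42. Of these 4 (10.3%) were called higher, against 8.55% of the genes in that fit. The median difference was 0.40 over the 39 and 0.12 over all genes in that fit. With arrays centred on their median 40 of 42 were positive and 1 (2.38%) was called higher, against 3.77% of all genes. Under quantile normalisation 3 (7.14%) were called higher, against 4.45% of all genes, and under cyclic loess 3, against 4.52%. At an unadjusted p under 0.05, 24 of the 42 were higher, against 17.0% of all genes. The genes moved together on each array, so 42 positive signs are not 42 independent observations.

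**Figure D1:**
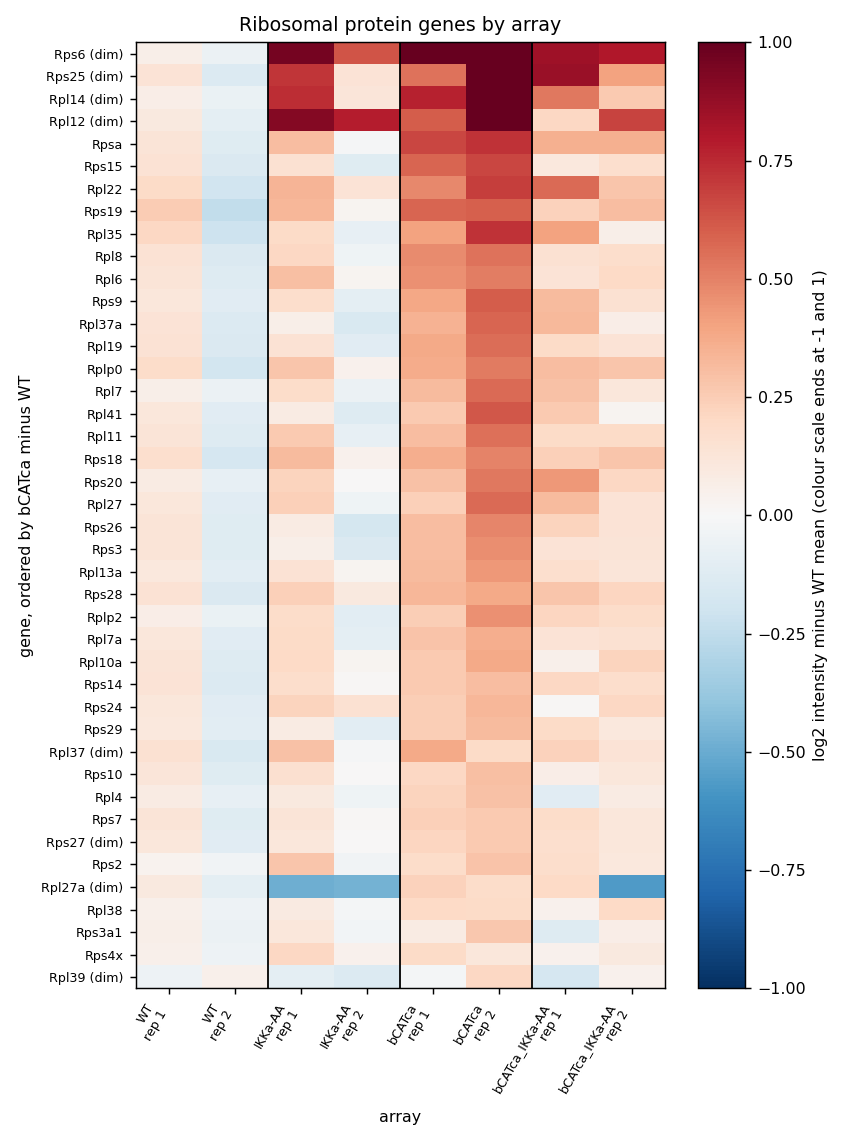
Each row is 1 ribosomal protein gene and each column 1 array; colour gives log2 intensity minus the wild-type mean of that gene, from blue (lower) to red (higher), with colours ending at -1 and 1 and the 8 dim genes marked. The stabilised β-catenin columns are the reddest, and replicate 2 of that group is the highest array for 38 of the 42 genes.

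The 5 genes that rose were Rps6, Rpl14, Rpl12, Rpsa and Rps15. Rps6, the small-subunit protein phosphorylated by the S6 kinases, read 7.58 and 7.46 in wild type, 8.48 and 8.15 in IKKα-AA, 8.65 and 8.93 in stabilised β-catenin and 8.37 and 8.32 in double mutants. The wild-type arrays were the lowest of the 8 and the stabilised β-catenin arrays the highest, with no overlap. Its increase over wild type was 1.27 (SE 0.17), or 2.41-fold, with an adjusted p of 0.00436.

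Rpl14, a large-subunit protein, read 6.25 and 6.11 in wild type, 6.92 and 6.30 in IKKα-AA, 6.95 and 7.40 in stabilised β-catenin and 6.71 and 6.44 in double mutants. Rpl12, which sits at the base of the stalk, read 5.50 and 5.31 in wild type, 6.32 and 6.19 in IKKα-AA, 6.01 and 6.73 in stabilised β-catenin and 5.61 and 6.08 in double mutants. For both genes the wild-type arrays were below all stabilised β-catenin arrays, but the IKKα-AA and stabilised β-catenin arrays of Rpl12 overlapped. Rpl14 was higher than in wild type by 0.99 (SE 0.24, adjusted p 0.039) and Rpl12 by 0.97 (SE 0.25, adjusted p 0.049).

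Rpsa, a protein of the small subunit also known as the laminin receptor, read 11.97 and 11.72 in wild type, 12.15 and 11.83 in IKKα-AA, 12.51 and 12.57 in stabilised β-catenin and 12.20 and 12.20 in double mutants. Rps15, needed for export and maturation of the small subunit, read 11.84 and 11.55 in wild type, 11.85 and 11.57 in IKKα-AA, 12.28 and 12.36 in stabilised β-catenin and 11.80 and 11.86 in double mutants. In both genes the stabilised β-catenin arrays stood above the other 6 arrays. The increases were 0.69 (SE 0.16, adjusted p 0.0351) for Rpsa and 0.62 (SE 0.16, adjusted p 0.0495) for Rps15. These were the only 2 calls among the 34 bright genes, a share of 5.88% that is close to the 5.74% of all genes called higher.

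Apart from Rps6, the calls turned on single arrays. Rps6 stayed past the test in all 8 fits that left out 1 array, with a highest adjusted p of 0.0465. Rpl14 and Rpl12 stayed in 3 of the 8 fits and Rpsa and Rps15 in 2, with highest adjusted p of 0.21 for Rpl14 without stabilised β-catenin replicate 2, and 0.234 for Rpl12, 0.212 for Rpsa and 0.266 for Rps15 without wild-type replicate 2. Without wild-type replicate 1, wild-type replicate 2, stabilised β-catenin replicate 2 or either double-mutant array, Rps6 was the only call.

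**Figure D2:**
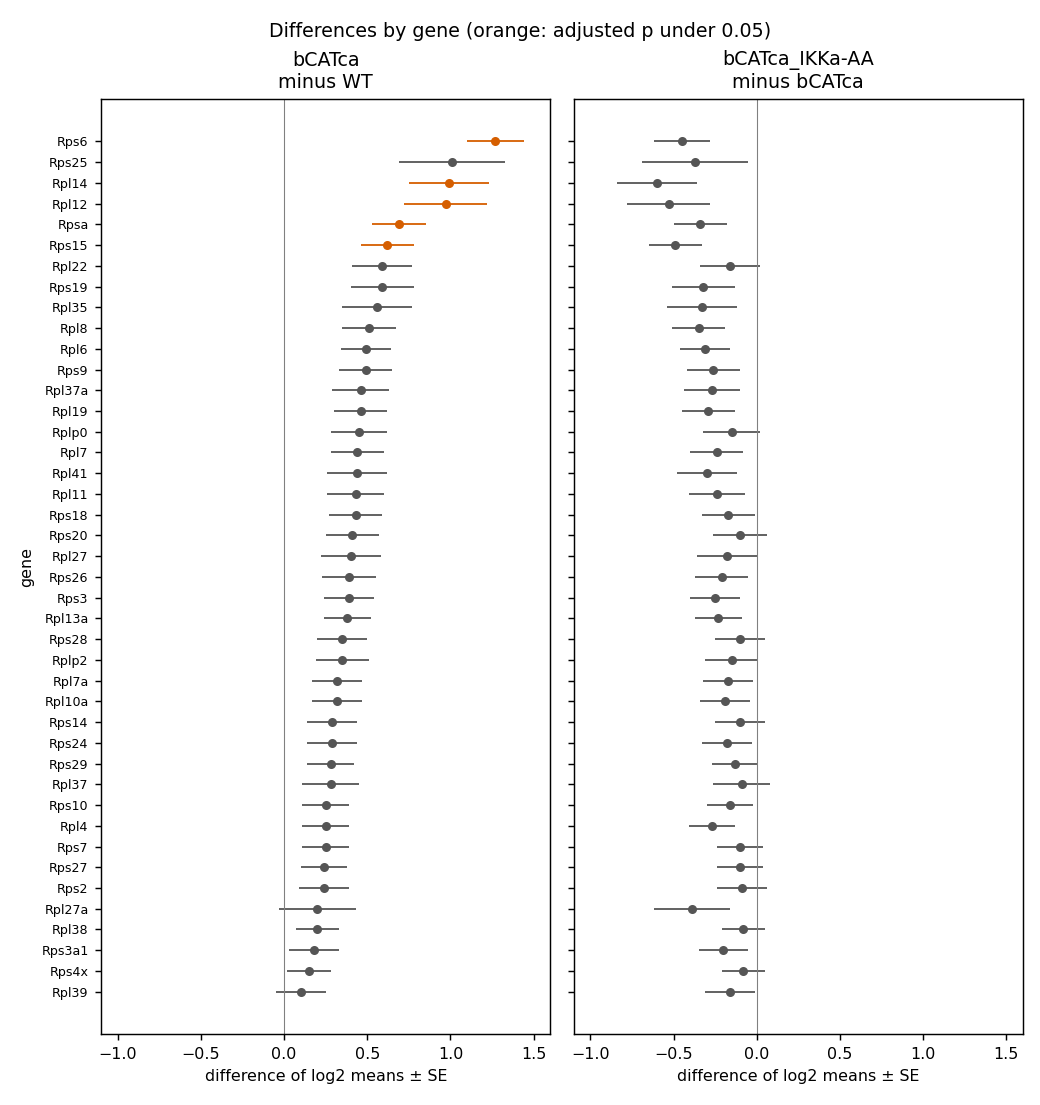
Points give the difference of log2 group means for each of the 42 genes and bars the standard error, for stabilised β-catenin minus wild type (left) and double mutants minus stabilised β-catenin (right), 2 arrays per group; orange marks an adjusted p under 0.05. All 42 points lie above 0 on the left and all 42 below 0 on the right, where none passed the test. With arrays centred on their median these counts were 40 and 33.

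The other 37 genes did not pass the test. The largest difference among them was that of Rps25, a small-subunit protein used by viral internal ribosome entry sites, at 1.01 (SE 0.32, adjusted p 0.0835). It was called in 1 of the 8 fits that left out an array (adjusted p 0.0387), and its difference ranged from 0.55 to 1.48 over them. It read 7.25 and 6.98 in wild type, 7.83 and 7.25 in IKKα-AA, 7.66 and 8.59 in stabilised β-catenin and 7.98 and 7.52 in double mutants. The 2 stabilised β-catenin arrays were far apart, though both lay above wild type. Rps6, Rps25 and Rpl14 had the widest range of group means of all 42 genes.

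The stalk proteins gave smaller differences. Rplp0, the anchor of the stalk, read 12.38 and 12.02 in wild type, 12.48 and 12.24 in IKKα-AA, 12.57 and 12.72 in stabilised β-catenin and 12.51 and 12.48 in double mutants. Rplp2 read 13.07 and 12.94 in wild type, 13.19 and 12.90 in IKKα-AA, 13.25 and 13.46 in stabilised β-catenin and 13.22 and 13.19 in double mutants. In both genes the stabilised β-catenin arrays were the top pair, and the wild-type and IKKα-AA arrays overlapped.

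Rpl11, which can bind Mdm2 and so restrain p53 breakdown when ribosome assembly fails, read 12.00 and 11.74 in wild type, 12.13 and 11.79 in IKKα-AA, 12.18 and 12.42 in stabilised β-catenin and 12.06 and 12.06 in double mutants. Its difference between stabilised β-catenin and wild type was 0.43 (SE 0.17, adjusted p 0.144). Rpl41, among the shortest of all proteins, read 13.03 and 12.81 in wild type, 13.00 and 12.79 in IKKα-AA, 13.18 and 13.54 in stabilised β-catenin and 13.18 and 12.95 in double mutants. Rps29, a zinc-binding protein of the small subunit, read 12.92 and 12.71 in wild type, 12.90 and 12.71 in IKKα-AA, 13.06 and 13.13 in stabilised β-catenin and 13.01 and 12.92 in double mutants. Wild-type and IKKα-AA arrays were almost level in Rpl41 and Rps29.

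At the other end, Rps4x, encoded on the X chromosome, read 12.33 and 12.23 in wild type, 12.49 and 12.32 in IKKα-AA, 12.47 and 12.39 in stabilised β-catenin and 12.32 and 12.38 in double mutants. The difference between stabilised β-catenin and wild type was 0.15 (adjusted p 0.489), the smallest of the bright genes. Rps3a1 differed by 0.18 and Rpl38 by 0.20. Among the dim genes, Rpl39, which lines the exit tunnel of the large subunit, read 4.51 and 4.61 in wild type, 4.46 and 4.42 in IKKα-AA, 4.54 and 4.77 in stabilised β-catenin and 4.39 and 4.60 in double mutants. Rps27 read 5.97 and 5.74 in wild type, 5.97 and 5.86 in IKKα-AA, 6.07 and 6.12 in stabilised β-catenin and 6.02 and 5.97 in double mutants. For Rpl39 the stabilised β-catenin and wild-type arrays overlapped, and for Rps27 they did not.

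No test compared the large with the small subunit. The median difference between stabilised β-catenin and wild type was 0.43 over the 22 large-subunit and 0.37 over the 20 small-subunit genes. Of these, 2 (9.1%) and 3 (15.0%) rose, against 5.74% of all genes. Both double-mutant arrays lay below both stabilised β-catenin arrays in 14 of the 22 large-subunit and 18 of the 20 small-subunit genes. Over all genes the share was 24.2%. The median of this difference was -0.24 in the large and -0.17 in the small subunit, so counts and medians did not order the subunits alike. By brightness, the median was 0.40 over the 34 bright genes and 0.62 over the 8 dim genes. The dim genes supplied 3 of the 5 calls.

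The promoters of the 5 genes that rose are set beside those of the 5 bright genes with the smallest differences, so that the sequence at the start of transcription can be compared between the ends of the range. The windows are from RefSeq on GRCm38.p6, written 5′ to 3′ on the gene's strand, with 40 bases before the annotated start and 20 from it onwards. Capitals mark a C followed by at least 4 pyrimidines that begins within 5 bases of the start, the form of a terminal oligopyrimidine tract. The first 5 are the genes that rose, by falling difference.
Rps6 (chr4:86857348-86857407, minus strand): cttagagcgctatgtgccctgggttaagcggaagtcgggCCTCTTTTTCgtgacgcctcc
Rpl14 (chr9:120571477-120571536, plus strand): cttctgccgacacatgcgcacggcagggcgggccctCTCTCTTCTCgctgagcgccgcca
Rpl12 (chr2:32961672-32961731, plus strand): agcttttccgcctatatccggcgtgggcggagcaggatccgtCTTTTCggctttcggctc
Rpsa (chr9:120127726-120127785, plus strand): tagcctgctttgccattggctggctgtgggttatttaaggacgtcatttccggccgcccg
Rps15 (chr10:80292391-80292450, plus strand): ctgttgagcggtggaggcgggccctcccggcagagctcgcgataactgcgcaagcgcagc
The next 5 are the bright genes with the smallest differences, by rising difference.
Rps4x (chrX:102189372-102189431, minus strand): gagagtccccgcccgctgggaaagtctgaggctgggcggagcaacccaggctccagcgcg
Rps3a1 (chr3:86142649-86142708, minus strand): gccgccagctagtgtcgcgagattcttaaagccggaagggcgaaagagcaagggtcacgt
Rpl38 (chr11:114668540-114668599, plus strand): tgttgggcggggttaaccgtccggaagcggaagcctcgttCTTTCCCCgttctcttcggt
Rps2 (chr17:24720023-24720082, plus strand): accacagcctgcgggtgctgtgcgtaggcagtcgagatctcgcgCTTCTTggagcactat
Rps7 (chr12:28635934-28635993, minus strand): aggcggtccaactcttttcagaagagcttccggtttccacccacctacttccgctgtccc
A tract was found in 3 of the first 5 (Rps6, Rpl14 and Rpl12, all dim) and in 2 of the last 5 (Rpl38 and Rps2).

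RefSeq promoters, from 250 bases before to 50 after the start, were found for 37 of the 42 genes, with 43 promoters in all. The tract was present in 19 of the 43 promoters (44.2%), against 18.3% of all 32851 promoters. By gene, the 18 with a tract had a median difference between stabilised β-catenin and wild type of 0.36 (0.10 to 1.27) and the 19 without one a median of 0.43 (0.15 to 1.01). The ranges overlapped over nearly their whole length. Of the motifs searched on both strands, CCGGAA, the core bound by ETS factors, was present in 25 promoters (58.1%, against 14.9% of all promoters), and the palindrome TCGCGA in 13 (30.2%, against 2.5%). AAGATGG, read by YY1, was present in 6 (14.0%, against 6.3%). The E-box CACGTG, read by Myc and its partners, was found in 5 promoters (11.6%, against 7.2%). The TCF/LEF core CTTTGA, through which β-catenin acts, was found in 3 (7.0%, against 16.0%), and TATAAA in 5 (11.6%, against 13.6%). The motifs do not contain one another, and a match describes the letters in the window only.

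The array-by-array medians show how uniform the shift was and how large the replicate gaps were. Relative to the wild-type mean, the median over the 42 genes was 0.12 and -0.12 in wild type, 0.19 and -0.02 in IKKα-AA, 0.31 and 0.49 in stabilised β-catenin and 0.20 and 0.16 in double mutants. The stabilised β-catenin arrays were the top pair, while the IKKα-AA arrays overlapped with the wild-type arrays. The pooled SD of these medians within groups was 0.123. Wild-type replicate 1 lay above replicate 2 in 41 of 42 genes, with a median gap of 0.24, and IKKα-AA replicate 1 above replicate 2 in 41 of 42, with a median gap of 0.23. In stabilised β-catenin replicate 1 was the lower in 38 of 42. In double mutants replicate 1 was the higher in 26 of 42. The replicate gap was therefore shared by the genes, as the group difference was.

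**Figure D3:**
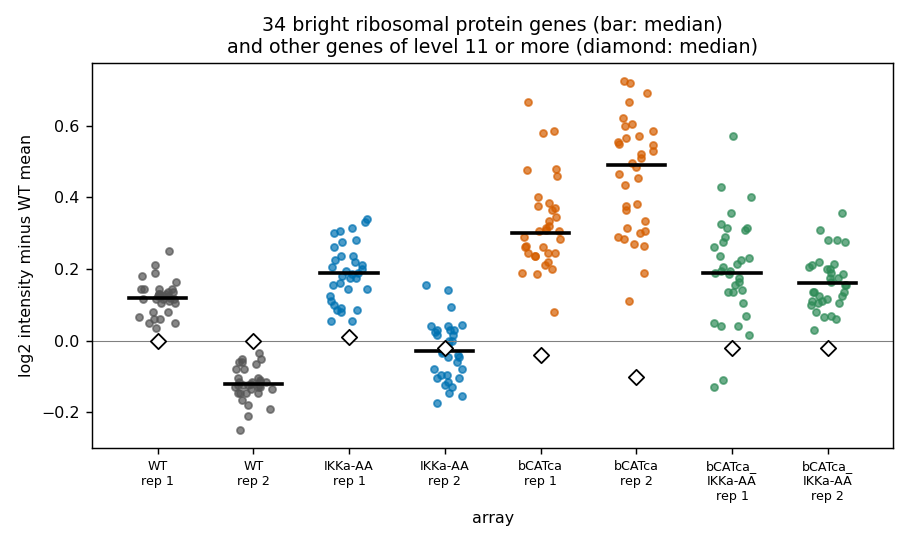
Points are the 34 bright ribosomal protein genes on each array, as log2 intensity minus the wild-type mean; bars give their median, and open diamonds give the median of the 369 other genes with a mean of at least 11. The genes move as a block from array to array, highest in stabilised β-catenin replicate 2, while the diamonds stay between -0.10 and 0.01.

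Other genes of similar brightness did not follow. The 369 other genes with a mean of at least 11 had array medians of 0.01 and -0.02 in IKKα-AA, -0.04 and -0.10 in stabilised β-catenin and -0.02 and -0.02 in double mutants. Their median difference between stabilised β-catenin and wild type was -0.07. The array-wide median over all genes was higher in stabilised β-catenin, 6.39 on both arrays against 6.25 and 6.20 in wild type, and centring every array on its median lowered the median ribosomal protein difference to 0.23 with 1 call, Rps6. Relative to the median over all genes it was 0.39 with and without centring, which must be so because centring shifts all genes of an array alike. Under quantile normalisation and under cyclic loess the median was 0.47.

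Across the 8 arrays, each bright gene was correlated with the median of the other bright ribosomal protein genes, as a description. Pearson's r lay between 0.64 and 0.99 with a median of 0.945. For the 8 dim genes it lay between 0.42 and 0.97 with a median of 0.81, and over all genes the median was 0.03. These arrays share their hybridisation and normalisation, and the genes share the group differences.

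Markers and quality controls also moved between these groups. Crypt stem cell markers had a median difference between stabilised β-catenin and wild type of 2.01, with 4 of 7 called higher, and enterocyte markers one of -0.63, with 2 of 8 called lower. The T cell list had a median of -0.73 with none of 10 called. The 18S control RNA read 10.35 and 11.04 in wild type, 11.76 and 11.76 in IKKα-AA, 11.21 and 11.39 in stabilised β-catenin and 11.06 and 11.42 in double mutants. The 3′ minus 5′ difference of the actin control, a sign of RNA integrity, was 0.65 and 0.41 in wild type, 0.45 and 0.37 in IKKα-AA, 0.62 and 0.63 in stabilised β-catenin and 0.77 and 0.49 in double mutants. For the Gapdh control this difference was -0.16 and -0.23 in wild type, -0.24 and -0.12 in IKKα-AA, -0.01 and 0.05 in stabilised β-catenin and -0.15 and -0.18 in double mutants. The Gapdh values of stabilised β-catenin stood above those of the other 6 arrays, as the ribosomal protein medians did, while the actin values overlapped between groups. The part of cell composition and of RNA quality in the ribosomal protein difference was not tested.

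The choice of probe set mattered for single genes more than for the group. The 42 genes had 91 single-symbol probe sets, of which 89 were higher in stabilised β-catenin than in wild type, as were 61 of the 61 with a mean of at least 10. The 2 exceptions were dim, a probe set of Rps24 with a mean of 4.27 and a difference of -0.44, and one of Rps6 with a mean of 3.43 and a difference of -0.14. Rpl22, an RNA-binding protein of the large subunit, differed by 0.59 (adjusted p 0.0794) on its brightest probe set and by 1.11 (adjusted p 0.00443 in a fit of all probe sets) on a second probe set of mean 8.45. Rps24 differed by 0.29 on its brightest probe set and by 1.22 on a dimmer one of mean 6.16 (adjusted p 0.0232). A dimmer probe set of the same gene could thus give a larger difference.

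A further 102 probe sets list a ribosomal protein symbol together with other symbols and name no single gene. Of these, 96 were higher in stabilised β-catenin, with 3 called higher, where 4.34% of all probe sets were called higher. For the 8 dim genes the brightest such probe set read between 11.73 and 13.17. These 8 differed between stabilised β-catenin and wild type by 0.04 to 0.53 with a median of 0.36, and none passed the test (lowest adjusted p 0.102). The brightest of the 9 that list Rps6 with other symbols read 13.17 and differed by 0.32 (adjusted p 0.223), less than the 1.27 of the dim probe set annotated to Rps6 alone. The 2.41-fold increase of Rps6 is thus the reading of a single dim probe set.

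The AA allele alone was compared with wild type to see what it does without stabilised β-catenin. None of the 42 genes passed the test, where 0.00807% of all genes were called lower and 0% higher, and 2 were higher at an unadjusted p under 0.05, against 5.16%. The difference was positive in 35 of 42, against 49.2% of all genes, with a median of 0.08 and single genes between -0.48 and 0.85. A fit of the genes above the median level gave a median of 0.08 for the ribosomal protein genes and 0.08 for all its genes. Both IKKα-AA arrays lay above both wild-type arrays in 5 genes, against 21.2% of all genes, and below in 2, against 24.7%. The lowest p-values were those of Rps6 at 0.80 (SE 0.17, adjusted p 0.262), Rpl12 at 0.85 (SE 0.25, adjusted p 0.329) and Rpl27a at -0.48 (SE 0.23, adjusted p 0.456). Rpl27a, a large-subunit protein, read 8.87 and 8.67 in wild type, 8.28 and 8.30 in IKKα-AA, 9.00 and 8.95 in stabilised β-catenin and 8.97 and 8.20 in double mutants. Both IKKα-AA arrays of Rpl27a were below wild type, and the double-mutant arrays were far apart. The median was 0.03 with arrays centred on their median, and -0.02 without wild-type replicate 2 or without IKKα-AA replicate 1, so its direction turned on single arrays. Without IKKα-AA replicate 2, Rps6 had an adjusted p of 0.0399, but that fit assumes that the lone IKKα-AA array varies like the other groups, and it called 1.03% of all genes higher and 1.59% lower.

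The double mutants lay between wild type and stabilised β-catenin. Against wild type the difference was positive in 38 of 42 genes, against 53.5% of all genes, and both double-mutant arrays lay above both wild-type arrays in 24, against 28.2%, and below in none, against 23.7%. The median was 0.18, or 1.13-fold, with single genes between -0.18 and 0.82. None passed the test, where 0.984% of all genes were called higher and 0.460% lower, and 2 were higher at an unadjusted p under 0.05, against 9.38%. Rps6 differed by 0.82 (SE 0.17, adjusted p 0.057), Rpl22 by 0.43 (SE 0.18, adjusted p 0.292) and Rpsa by 0.35 (SE 0.16, adjusted p 0.31). Rpl22 read 10.37 and 9.99 in wild type, 10.52 and 10.32 in IKKα-AA, 10.66 and 10.87 in stabilised β-catenin and 10.75 and 10.46 in double mutants. The median was 0.31 without wild-type replicate 1, 0.04 without wild-type replicate 2 and 0.11 with arrays centred on their median. In a fit of the genes above the median level it was 0.18, where the median over all genes of that fit was 0.09. Rps6 was called when either IKKα-AA array was left out, with an adjusted p of 0.0198 each time, in fits that called 2.70% of all genes higher and 2.64% lower.

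Against stabilised β-catenin, all 42 genes were lower in the double mutants, where 50.6% of all genes were higher. Both double-mutant arrays lay below both stabilised β-catenin arrays in 32 genes, against 24.2% of all genes. The median difference was -0.21, with single genes between -0.60 and -0.08, and the median over all genes was 0.00. None of the 42 passed the test, where 0.403% of all genes were called higher and 0.807% lower, and 3 were lower at an unadjusted p under 0.05, against 8.20% of all genes. The lowest p-values belonged to Rps15 at -0.49 (SE 0.16, adjusted p 0.207), Rps6 at -0.45 (SE 0.17, adjusted p 0.265) and Rpl14 at -0.60 (SE 0.24, adjusted p 0.289). In Rps15 the double-mutant arrays, 11.80 and 11.86, lay beside the higher wild-type reading of 11.84. The stabilised β-catenin arrays enter this comparison and the one against wild type, so a high reading on them adds to both. With arrays centred on their median, 33 of 42 were lower, with a median of -0.10 where the median over all genes was 0.11. Without stabilised β-catenin replicate 2, the highest array, and with every other array left out in turn, the median stayed between -0.30 and -0.12.

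T cell markers were lowest in the double mutants. Their summed level on the log2 scale was 13.07 and 12.69 in wild type, 10.99 and 12.90 in IKKα-AA, 12.40 and 12.01 in stabilised β-catenin and 10.12 and 9.70 in double mutants. Against wild type, 4 of the 10 markers fell in the double mutants, with a median of -2.87. Against stabilised β-catenin the median was -2.21. The summed myeloid markers read 10.38 and 10.20 in wild type, 9.44 and 10.33 in IKKα-AA, 10.10 and 10.16 in stabilised β-catenin and 9.07 and 9.20 in double mutants. That sum is ruled by its brightest genes. The median of the 9 myeloid markers against wild type was -0.07, with 4 positive and 5 negative. Ptprc, found on all white blood cells, differed by -3.36 (adjusted p 0.0199) and Cd14 by 1.02 (adjusted p 0.0391). Of 7 B and plasma cell markers, 2 fell in double mutants against stabilised β-catenin, Igha (-5.96, adjusted p 0.0444) and Ms4a1 (-1.14, adjusted p 0.0276). Jchain, at -5.98 (adjusted p 0.0608), did not pass limma's test. Only 1 of the 7 was positive, Xbp1 at 0.06. The summed levels were 11.90 and 12.14 against 12.92 and 12.81. In the double mutants that sum is ruled by Xbp1, at 11.71 and 11.98. Enterocyte markers were higher in double mutants than in stabilised β-catenin by a median of 0.47 with none of 8 called, and crypt stem cell markers lower by a median of 1.01 with 1 of 7 called, Prom1. The part of these lists in the ribosomal protein values was not tested.

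Set against IKKα-AA alone, the double mutants differed little. The median was 0.09, with 36 of 42 genes positive against 56.1% of all genes, and single genes between -0.41 and 0.29. None passed the test, where 0.0484% of all genes were called higher and 0.00807% lower, and none had an unadjusted p under 0.05, against 4.48% of all genes in the higher and 2.45% in the lower direction. Both double-mutant arrays lay above both IKKα-AA arrays in 7 genes, against 19.9% of all genes, and below in 1, Rpl12, against 13.8%. Rpl12 differed by -0.41 (SE 0.25, adjusted p 0.832), Rpl37a by 0.25 (SE 0.17, adjusted p 0.841) and Rps26 by 0.22 (SE 0.16, adjusted p 0.845). The median was 0.24 without IKKα-AA replicate 1 and 0.00 without IKKα-AA replicate 2.

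The effect of stabilised β-catenin in IKKα-AA cells was then set against its effect in wild-type cells, as an interaction term in the same fit. The term was negative in 41 of 42 genes, with a median of -0.29 and single genes between -1.38 and 0.09, where the term was positive in 50.3% of all genes with a median of 0.00. None of the 42 passed the test, where 0.0403% of all genes were called higher and 0.0484% lower, and 3 were lower at an unadjusted p under 0.05, against 7.84% of all genes. Rps6 had the lowest p, with a term of -1.24 (SE 0.24, adjusted p 0.0782), followed by Rpl12 at -1.38 (SE 0.35, adjusted p 0.151) and Rpl14 at -1.03 (SE 0.34, adjusted p 0.221). All 3 are dim genes. A difference between the backgrounds was therefore not established for any single ribosomal protein gene with 2 arrays a group. With arrays centred on their median the median term was -0.13, negative in 38 of 42, where the median over all genes was 0.16. It was -0.17 without wild-type replicate 2 or without IKKα-AA replicate 1. In a fit of the genes above the median level it was -0.30, where the median over all genes of that fit was -0.11. Without IKKα-AA replicate 2 the Rps6 term had an adjusted p of 0.0324, again with a lone IKKα-AA array assumed to vary like the others, in a fit that called 1.01% of all genes higher and 0.880% lower.

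By group mean, stabilised β-catenin was the highest of the 4 groups in 42 of 42 genes. Wild type was the lowest in 33, IKKα-AA in 7 and the double mutants in 2. By single array, wild-type replicate 2 was the lowest for 32 genes. In the array medians the IKKα-AA arrays overlapped with wild type and with the double mutants. Both double-mutant arrays (0.20 and 0.16) lay above both wild-type arrays (0.12 and -0.12), with a pooled SD within groups of 0.123.

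Other parts of the translation machinery were read from lists of genes. Ribosome assembly factors, which process ribosomal RNA and join it with the proteins, had a median difference between stabilised β-catenin and wild type of 0.68, and 8 of 38 rose. Among them the small nucleolar RNA-binding proteins Nop56 rose by 1.01 (adjusted p 0.0153), Gar1 by 0.99 (adjusted p 0.0194) and Nop58 by 0.91 (adjusted p 0.0304), and Ebna1bp2, of the large-subunit pathway, by 0.95 (adjusted p 0.0359). The machinery of RNA polymerase I, which transcribes ribosomal RNA, had a median of 0.55, with 2 of 12 rising, the subunits Polr1e by 1.02 (adjusted p 0.035) and Polr1c by 0.65 (adjusted p 0.0438). Both medians were above the 0.40 of the ribosomal proteins, and that difference was not tested.

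Translation initiation factors had a median of 0.52 and 6 of 30 rose. Eif1a, which scans for the start codon, rose by 0.88 (adjusted p 0.0225), Eif2s2, a subunit of the factor that brings the initiator tRNA, by 1.04 (adjusted p 0.0231), and the Eif3 subunits Eif3e by 0.63 (adjusted p 0.0432) and Eif3i by 0.69 (adjusted p 0.046). The elongation factor list had 8 genes, among them Eef2k, a kinase acting on Eef2, and Eef1e1, which are not elongation factors themselves. None of the 8 passed the test, with a median of 0.32. The one with the lowest p was Eef1d, a nucleotide exchange factor, at 0.60 (adjusted p 0.0777). Of 16 other genes known for a pyrimidine tract at the start of their message, 2 rose, Eif3e and the histone chaperone Nap1l1 (0.97, adjusted p 0.0353), with a median of 0.40.

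None of 74 mitochondrial ribosomal protein genes passed the test either, although 71 were positive, with a median of 0.32. Mrpl17 had the lowest p, at 0.63 (adjusted p 0.0506). The TOR and S6 kinase pathway had a median of 0.08 with none of 13 called, and its lowest p was that of Eif4ebp1, the TOR-regulated repressor of initiation, at 0.85 (adjusted p 0.0678). In the Myc network the median was 0.00, with 5 of 11 positive and 6 negative. Of these 2 rose, Mycl by 1.79 (adjusted p 0.00136) and Myc by 1.28 (adjusted p 0.00407), while the Myc partner Max (-0.69, adjusted p 0.186) and the antagonist Mxd1 (-0.71, adjusted p 0.131) did not pass the test. Mycl was also lower in double mutants than in stabilised β-catenin, by 1.03 on the log2 scale (adjusted p 0.0382).

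**Figure D4:**
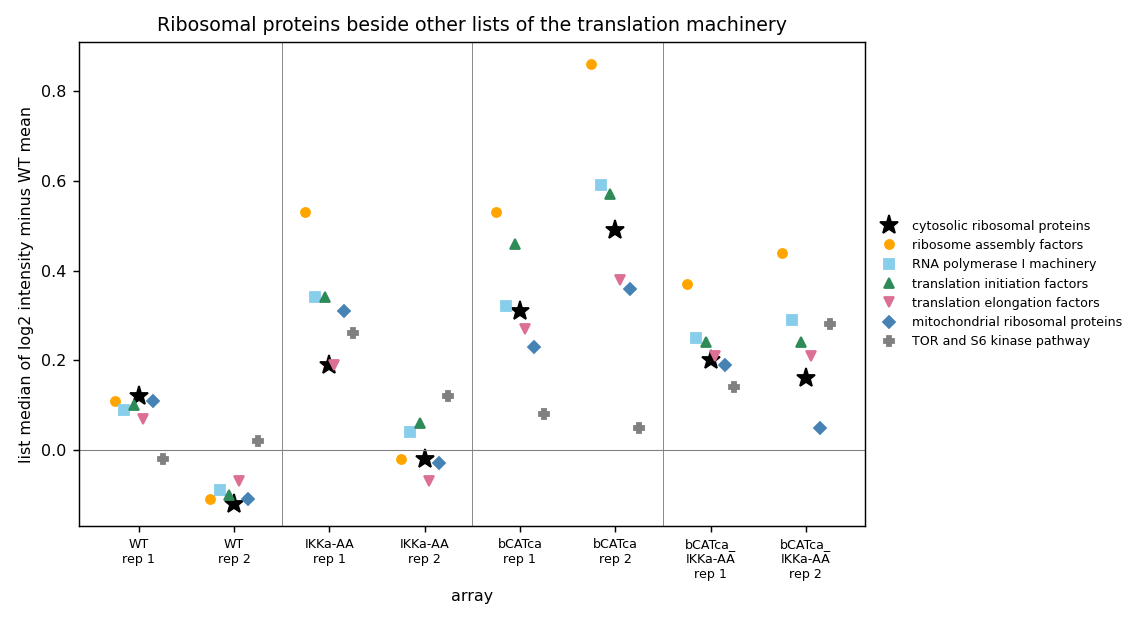
For each array, symbols give the median over a list of log2 intensity minus the wild-type mean; stars are the 42 cytosolic ribosomal proteins. In stabilised β-catenin the assembly factors lie above the ribosomal proteins on both arrays, while the TOR and S6 kinase list stays near 0.

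In the paralogs left out by the naming rule, 1 of 6 rose, Rps4l by 0.71 (adjusted p 0.0422), with a median of 0.19. Fau, which encodes a small-subunit protein fused to a ubiquitin-like domain, differed by 0.12, and Eif6, which keeps the subunits apart until the large one is mature, by 0.27 (adjusted p 0.188). Against stabilised β-catenin, the double-mutant medians were -0.30 for the assembly factors, -0.24 for the initiation factors, -0.20 for the polymerase I machinery, -0.15 for the elongation factors and -0.19 for the mitochondrial ribosomal proteins, with none called in these lists. For the TOR and S6 kinase list the median was 0.13. The cytosolic ribosomal proteins, at -0.21, lay among these values.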

How the data were processed

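The authors deposited an intensity on a linear scale for every probe set and array. The authors' tools were RMA and affy, per the submitters' processing notes, which give no version. RMA summarises the probes of a probe set and normalises arrays to one another, which can remove array-wide shifts. Here log2 of each intensity was taken. Symbols came from the platform annotation, updated through RefSeq's GRCm38.p6 table by Entrez identifier for 20351 probe sets. Of 22690 probe sets, 20380 had 1 symbol, 691 had several, 1555 had none and 64 were controls. The brightest single-symbol probe set stood for each of 12393 genes.

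A model with a mean for each group was fitted over the 8 arrays by lmFit and eBayes of limma 3.58.1 in R 4.3.3, with 4 residual degrees of freedom, and p-values were adjusted by Benjamini-Hochberg over all genes. A gene was called at an adjusted p under 0.05. The script was tested on simulated data. The number of arrays limits the precision. Members and lists were chosen with earlier results of these data known. Genes named were, in each comparison, the 6 largest called changes in each direction or, with none, the 3 smallest p, together with Rplp0, Rplp1, Rplp2, Rpsa, Rps6, Rpl5, Rpl11, Rps27a and the 3 highest, 3 lowest and 3 most variable members, and, of each other list, at most 4 called genes or the 1 with the smallest p. Rpl22, Rps24, Rps25, Rps4x, Rps3a1, Rpl38, Fau, Max, Mxd1 and the epithelial, vessel and connective-tissue markers were also named after their values were seen. Alternatives were other scalings, probe set rules, filters and single arrays left out.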

Additional observations from a re-analysis of the deposited data

Results flagged for a closer look

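For Rpl12, both stabilised β-catenin arrays lay above both wild-type arrays, while both double-mutant arrays lay below both IKKα-AA arrays, so the difference made by stabilised β-catenin had opposite signs on the 2 backgrounds. The interaction term was -1.38, and it did not pass limma's test (adjusted p 0.151). Over all genes the first separation was found in 33.5% and the second in 13.8%. The share of all genes with both is not given here.

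For Rps6 and Rpl14 the difference made by the AA allele had opposite signs without and with stabilised β-catenin. Both IKKα-AA arrays lay above both wild-type arrays, and both double-mutant arrays lay below both stabilised β-catenin arrays. Over all genes the first was found in 21.2% and the second in 24.2%, and the share with both is not given here. The interaction terms were -1.24 for Rps6 (adjusted p 0.0782) and -1.03 for Rpl14 (adjusted p 0.221), and neither passed limma's test. Rpl12, Rps6 and Rpl14 were all read from dim probe sets.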

How the results depend on the processing

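The median ribosomal protein difference kept its direction in every scaling, probe set and filter alternative run. With single arrays left out, the direction turned for IKKα-AA against wild type. With stabilised β-catenin against wild type, the 5 calls became 3 (7.14%) under quantile normalisation or cyclic loess. They were also 3 with the mean of a gene's probe sets, where 5.20% of all genes were called higher. With the arrays of the compared groups only they were 3 as well, against 7.05% of all genes. With arrays centred on their median 1 was left. With the replicate number as a block 1 call was left (2.38%, against 3.66% of all genes called higher). Replicate differences of the groups correlated between -0.448 and 0.15 over all genes. This does not settle whether the replicate numbers pair the arrays, on which the labels are silent. Taking the lowest adjusted p among a gene's probe sets of the same direction gave 8 calls. That choice favours calls, and no share over all genes was computed for it. The remaining alternatives of this kind were chosen after seeing the data. Including shared probe sets gave 1 call of 71 symbols, with no share over all genes given here. The bright genes alone gave 2 of 34 (5.88%), against 5.74% of all genes called higher. For stabilised β-catenin against wild type, leaving out each array gave a median of 0.27 to 0.51, and centring gave a median of 0.23. Double mutants against wild type had 1 call (2.56%) among genes above the median level, against 1.66% of those genes. With the arrays of the compared groups only 1 was called (2.38%), against 3.06% of all genes. When leaving out each array the median was 0.04 to 0.31. IKKα-AA against wild type had a median of -0.02 to 0.19 in those fits. The double mutants had a median of 0.00 to 0.24 against IKKα-AA and of -0.30 to -0.12 against stabilised β-catenin. The interaction had a median of -0.39 to -0.17, and -0.13 after centring. Where fewer arrays or genes enter a fit, the test itself changes; otherwise the cause was not tested. The 8 dim genes were each read from 1 probe set, dim beside those of the bright ribosomal protein genes. The fit of genes above the median level still held 39 of the 42 ribosomal protein genes, Rps6 among them, and left out Rpl12, Rps27 and Rpl39. Signal over background was not measured, so whether it limits the dim genes was not tested.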
